A study of Mus musculus with 9 samples.

Results

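Deletion of miR-18a alone was compared with the intact miR-17~92 cluster in mouse embryos, across all mature miRNAs that small RNA sequencing counted. The comparison rests on 2 of the 8 genotype libraries of the series, 1 labelled as carrying the miR-18 deletion (ΔmiR-18) and 1 labelled wild type. The members are all rows for mature miRNAs in those libraries, 986 rows of which 918 had a read in either library. Of these rows, 10 are the arms of the 5 kept hairpins of the cluster, 2 are the arms of the deleted miR-18a, and 973 lie outside the cluster and are described apart. The remaining row is a second, lower listing of miR-92a-3p.

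All embryos were at embryonic day 9.5 and labelled female, and came from timed matings of miR-17~92 mutant mice. The heart and the tail bud were cut away and RNA of the rest of the embryo was extracted with Trizol. The other 6 genotypes carried deletions of miR-17 and miR-18 together (ΔmiR-17,18), of miR-17, miR-18 and miR-92 (ΔmiR-17,18,92), of the full cluster, of miR-17 (ΔmiR-17), of miR-19 (ΔmiR-19) and of miR-92 (ΔmiR-92), with 1 library each. The labels name these families only. In the data, deletion of miR-17 removed miR-17 and miR-20a, and deletion of miR-19 removed miR-19a and the cluster's miR-19b. How the alleles were built, how many embryos a library held and whether embryos were littermates are not stated in the labels. No genotype has a replicate, so no p-value is given for ΔmiR-18 against wild type, and the other 6 genotype libraries serve as the measure of spread although they differ in genotype themselves.

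miR-17~92 is a polycistron: several miRNA hairpins are cut from 1 host transcript by the nuclear enzyme Drosha and then by Dicer in the cytoplasm. Of the duplex that Dicer leaves, the guide arm is loaded into an Argonaute protein and the partner arm is mostly lost. A guide finds its target mRNAs mainly through its seed, the bases near its 5′ end, so miRNAs with 1 seed form a family with overlapping targets. The cluster is expressed widely in the early embryo and is known for its roles in growth and in lung, heart, blood and skeletal development. The hairpin of miR-18a is known in human cells to be bound by the RNA-binding protein hnRNP A1.

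In the GENCODE annotation of GRCm38, which is not the build of the deposited table, the miR-18a hairpin lies within the host transcript Mir17hg, a lincRNA gene on the plus strand, at chr14:115043851-115043946. It is the second of 6 hairpins, with 96 bases between it and Mir17 on its 5′ side and 53 bases between it and Mir19a on its 3′ side. Then follow Mir20a after 75 bases, Mir19b-1 after 41 and Mir92-1 after 35. The mature guide sequences of the cluster, and of the X-linked relative miR-18b-5p, are shown because the results turn on which of them were abundant. Sequences are from RefSeq (GRCm38.p6), 5′ to 3′, with the seed, bases 2 to 8, in capitals.
miR-18a-5p: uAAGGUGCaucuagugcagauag
miR-18b-5p: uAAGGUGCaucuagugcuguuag
miR-17-5p: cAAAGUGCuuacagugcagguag
miR-20a-5p: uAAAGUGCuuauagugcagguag
miR-19a-3p: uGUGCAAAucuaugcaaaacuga
miR-19b-3p: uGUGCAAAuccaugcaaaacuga
miR-92a-3p: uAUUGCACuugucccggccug
These guides fall into 4 seed families. miR-18a-5p and miR-18b-5p share their first 17 bases and differ by the substitutions A18U and A20U, counted from the 5′ end of miR-18a-5p. miR-19a-3p and miR-19b-3p differ at U11C alone. The mature sequences of miR-19b-3p and miR-92a-3p each occur at 2 positions in the reference table, 1 in the cluster and 1 elsewhere, so their reads cannot be assigned to the cluster by sequence alone. Their partner arms miR-19b-1-5p and miR-92a-1-5p occur at 1 position each.

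ΔmiR-18 was the deepest library, with 18481380 reads on mature miRNAs, against 7070844 in wild type and between 6564471 and 12943618 in the other 6. Levels are given as nRPM, the deposited normalised values multiplied by 1 factor so that the 8 libraries average to the scale of RPM. A single read was worth 0.0624 nRPM in ΔmiR-18, against 0.157 nRPM in wild type. Ratios carry 95% exact conditional intervals that cover counting error only and not the spread between embryos. PCR copies are counted as separate reads, so those intervals are too narrow. Log2 ratios were taken after adding 1 nRPM. The most abundant 10 miRNAs took 45.2% of the reads in ΔmiR-18, the highest share of the 8 libraries, and 41.8% in wild type. Among markers of the labelled tissue, the muscle miRNA miR-1a-3p stood at 2431 nRPM in ΔmiR-18, against 2485 nRPM in wild type. The heart-enriched miR-208a-3p, low in both, stood at 49.9 nRPM in ΔmiR-18, between 24.7 and 176 nRPM in the other 6 libraries, and at 6.27 nRPM in wild type. What part heart tissue left on the embryo had in any result was not tested.

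miR-18a was nearly absent from the library labelled with its deletion. miR-18a-5p had 72 reads or 4.49 nRPM in ΔmiR-18, which was 0.0445% (0.0348 to 0.0560) of the wild-type level of 10099 nRPM. In the other libraries with the deletion it stood at 72.6 nRPM in ΔmiR-17,18, 4.30 nRPM in ΔmiR-17,18,92 and 17.3 nRPM in the full deletion. In the other libraries without it, the level was 3446 nRPM in ΔmiR-17, 12792 nRPM in ΔmiR-19 and 10579 nRPM in ΔmiR-92. The 4 deleted and the 4 intact libraries did not overlap. The partner arm miR-18a-3p had 1 read in ΔmiR-18, against 254 nRPM in wild type.

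Among the kept arms, both miR-19 guides were far higher in ΔmiR-18 than in wild type, miR-17-5p was higher, and miR-92a-3p and miR-20a-5p were lower. miR-19a-3p stood at 83046 nRPM in ΔmiR-18, against 9621 nRPM in wild type, a ratio of 8.63 (8.56 to 8.70). The other libraries that kept it had 16804 nRPM in ΔmiR-17,18, 3157 nRPM in ΔmiR-17,18,92, 3221 nRPM in ΔmiR-17 and 20142 nRPM in ΔmiR-92. ΔmiR-18 therefore lay above all 5 others, and wild type lay inside the range of the 4 other mutants. miR-19b-3p stood at 155570 nRPM in ΔmiR-18, against 26894 nRPM in wild type, a ratio of 5.78 (5.76 to 5.81). It reached 147990 nRPM in ΔmiR-17,18, 67215 nRPM in ΔmiR-17,18,92, 25168 nRPM in ΔmiR-17 and 59391 nRPM in ΔmiR-92. All 3 libraries without miR-18a lay above all 3 libraries with it. Libraries with the miR-19 family deleted still held 1541 nRPM (ΔmiR-19) and 2852 nRPM (full deletion) of miR-19b-3p, the most that reads of its second locus and residual reads gave there.

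The miR-17 family did not move as a unit. miR-17-5p stood at 36341 nRPM in ΔmiR-18, against 17331 nRPM in wild type, a ratio of 2.10 (2.08 to 2.11). ΔmiR-19 had 21450 nRPM and ΔmiR-92 had 53720 nRPM, so ΔmiR-18 lay between the other mutants and wild type lay lowest of the 4 libraries that kept this arm. miR-20a-5p, with the same seed, stood at 21107 nRPM in ΔmiR-18, against 31072 nRPM in wild type, a ratio of 0.679 (0.676 to 0.683). ΔmiR-19 and ΔmiR-92 had 13908 and 15279 nRPM, so wild type was highest and ΔmiR-18 second. The opposite directions of miR-17-5p and miR-20a-5p therefore went with wild type being lowest for the 1 arm and highest for the other.

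miR-92a-3p is listed in 2 rows of unequal level, and no source used here says which row belongs to which locus. The higher one, taken as the cluster's arm because it was low in the libraries without miR-92, stood at 68470 nRPM in ΔmiR-18, against 199542 nRPM in wild type, a ratio of 0.343 (0.342 to 0.344). The level was 60314 nRPM in ΔmiR-17,18, 116098 nRPM in ΔmiR-17 and 139079 nRPM in ΔmiR-19. Both libraries without miR-18a lay below all 3 with it, and wild type lay above every other library. The lower one stood at 13797 nRPM in ΔmiR-18, against 22952 nRPM in wild type.

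The partner arms differed less than the guide arms, except in miR-20a. miR-19a-5p stood at 99.7 nRPM in ΔmiR-18, against 56.4 nRPM in wild type, a ratio of 1.77 (1.58 to 1.99), and ΔmiR-18 lay above all others that kept it. miR-20a-3p stood at 134 nRPM in ΔmiR-18, against 228 nRPM in wild type, and ΔmiR-18 lay below the range of 219 to 290 nRPM in ΔmiR-92 and ΔmiR-19. miR-17-3p had 2472 nRPM in ΔmiR-18, against 1954 nRPM in wild type. miR-19b-1-5p had 124 nRPM in ΔmiR-18, against 95.4 nRPM in wild type, the lowest of the 6 libraries that kept it. miR-92a-1-5p had 1302 nRPM in ΔmiR-18, against 1442 nRPM in wild type, a ratio of 0.903 (0.881 to 0.926). The median log2 ratio was 1.07 over the 5 guide arms and 0.34 over the 5 partner arms, the values of miR-17-5p and miR-17-3p. The guide arms ran from -1.54 to 3.11 and the partner arms from -0.76 to 0.81, so the arms did not share 1 direction. The median was -0.01 over the 319 miRNAs outside the cluster averaging 100 nRPM or more.

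**Figure D1:**
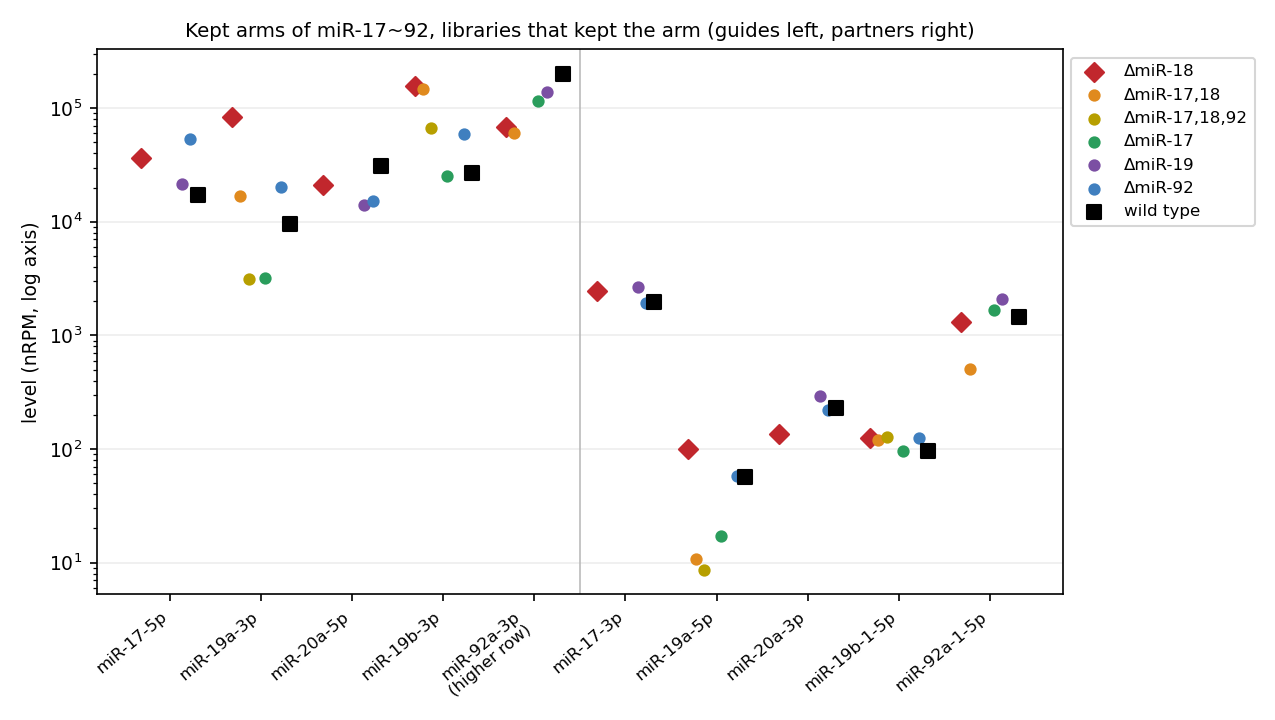
Levels of the 10 kept arms of miR-17~92 in nRPM (log axis) in every library that kept the arm, with guide arms on the left and partner arms on the right. Each point is 1 library. ΔmiR-18 (diamonds) lies above all others for both miR-19 guides, and wild type (squares) lies above all others for miR-92a-3p.

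Because the guide arms of miR-19 differed more than their partners, the number of guide reads per partner read differed as well. For miR-19a it was 833 in ΔmiR-18 and 171 in wild type, a 4.88-fold difference, with a range of 190 to 1578 in the 4 other libraries that kept both arms. For miR-19b it was 1251 in ΔmiR-18 and 282 in wild type, a 4.44-fold difference, with 263 to 1233 in the others. For miR-92a the order was turned, with 52.6 in ΔmiR-18 and 138 in wild type, and 66.3 to 120 in the others. The arms of miR-17 stood at 14.7 in ΔmiR-18 and 8.87 in wild type, within 8.03 to 27.7 in the others. Those of miR-20a stood at 157 in ΔmiR-18 and 137 in wild type, both above the 48.0 to 69.9 in the others. Of 74 hairpins outside the cluster with both arms counted, 14 (18.9%) differed by 2-fold or more in this ratio, with a largest log2 size of 2.41. That largest size belonged to miR-361. The next largest difference was -1.82 (miR-382, 5p arm over 3p arm), and the median size was 0.43. The log2 differences of 2.29 for miR-19a and 2.15 for miR-19b were smaller in size than that of miR-361 and larger than those of all other hairpins.

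The make-up of the cluster's output differed between the libraries more than its sum did. The 5 kept guide arms added up to 364535 nRPM in ΔmiR-18, against 284460 nRPM in wild type, or 31.6% of all miRNA reads in ΔmiR-18 and 25.7% in wild type. In ΔmiR-18, miR-19b-3p made up 42.7% of that sum and miR-19a-3p 22.8%. In wild type they made up 9.45% and 3.38%. miR-92a-3p made up 18.8% in ΔmiR-18 and 70.1% in wild type. miR-17-5p and miR-20a-5p took 9.97% and 5.79% in ΔmiR-18, and 6.09% and 10.9% in wild type. The wild-type library was thus dominated by miR-92a-3p and the ΔmiR-18 library by the 2 miR-19 guides.

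An exact permutation test over libraries asked whether the kept arms differed between libraries without and with miR-18a, each of them with further deletions. The 2-sided test was run on log2 levels in the libraries that kept the arm, with Benjamini-Hochberg adjustment over the 10 arms. miR-19b-3p averaged 123592 ± 48970 nRPM (SD, n = 3) without miR-18a and 37151 ± 19280 nRPM (SD, n = 3) with it. The exact permutation p was 0.1, the smallest this design allows, and 0.333 after adjustment. miR-92a-3p averaged 64392 ± 5767 nRPM (SD, n = 2) without miR-18a and 151573 ± 43102 nRPM (SD, n = 3) with it, with the same exact p and adjusted p. miR-92a-1-5p, at 902 ± 566 nRPM (SD, n = 2) without and 1739 ± 332 nRPM (SD, n = 3) with miR-18a, also reached p = 0.1 in the exact test. miR-19a-3p averaged 34336 ± 42733 nRPM without miR-18a and 10995 ± 8544 nRPM with it (SD, n = 3 each), and its exact p was 0.7. The arms of miR-17 and miR-20a were kept in 1 library without miR-18a, where the smallest possible exact p is 0.25. No kept arm could have passed 0.05 in this test.

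A second pair of libraries, ΔmiR-17,18 against ΔmiR-17, also differs by label in miR-18a and shares no library with ΔmiR-18 and wild type. For miR-19b-3p the ratio of ΔmiR-17,18 to ΔmiR-17 was 5.88 (5.86 to 5.90), beside 5.78 for ΔmiR-18 over wild type. For miR-19a-3p it was 5.22 (5.16 to 5.27), beside 8.63. miR-92a-3p had a ratio of 0.520 in the second pair, beside 0.343. The partner arms were less alike. miR-92a-1-5p had 502 nRPM in ΔmiR-17,18 and 1679 nRPM in ΔmiR-17, a ratio of 0.299, beside 0.903 for ΔmiR-18 over wild type. miR-19a-5p stood at 10.6 nRPM in ΔmiR-17,18 and 16.97 nRPM in ΔmiR-17, the opposite direction to that in ΔmiR-18 against wild type. Each of these pairs is 1 library a side.

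miR-18b-5p, which carries the seed of miR-18a from the X-linked paralog cluster of miR-106a to miR-363, was lower in ΔmiR-18 as well. It stood at 2788 nRPM in ΔmiR-18, against 6869 nRPM in wild type, a ratio of 0.406 (0.401 to 0.411). The other libraries without miR-18a had 2018 nRPM in ΔmiR-17,18, 4414 nRPM in ΔmiR-17,18,92 and 11429 nRPM in the full deletion. Those with miR-18a had 9483 nRPM in ΔmiR-17, 4754 nRPM in ΔmiR-19 and 1096 nRPM in ΔmiR-92. The groups overlapped, the full deletion being highest and ΔmiR-92, with intact miR-18a, lowest. Its partner arm miR-18b-3p stood at 44.7 nRPM in ΔmiR-18, the lowest of the 8 libraries, and at 53.3 nRPM in wild type. How the submitters assigned reads that match both miR-18a and miR-18b is not stated in what was used here, and its part in the level of miR-18b-5p was not tested.

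Summed over all members with 1 seed, the miR-18 family had the lowest ratio to wild type of the 4 families of the cluster. It held 2793 nRPM in ΔmiR-18, against 16968 nRPM in wild type, a ratio of 0.165 (0.163 to 0.166). The miR-17 seed family, which includes 4 arms of the paralog clusters, held 119505 nRPM in ΔmiR-18, against 107165 nRPM in wild type, a ratio of 1.12. Its range in the other 6 libraries was 68560 to 138987 nRPM, so neither library stood apart. The miR-19 family held 238616 nRPM in ΔmiR-18, against 36515 nRPM in wild type, a ratio of 6.53. The miR-92 family, with miR-25-3p, miR-32-5p, miR-92b-3p, miR-363-3p and miR-367-3p as further members, held 135528 nRPM in ΔmiR-18, against 276167 nRPM in wild type, a ratio of 0.491.

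**Figure D2:**
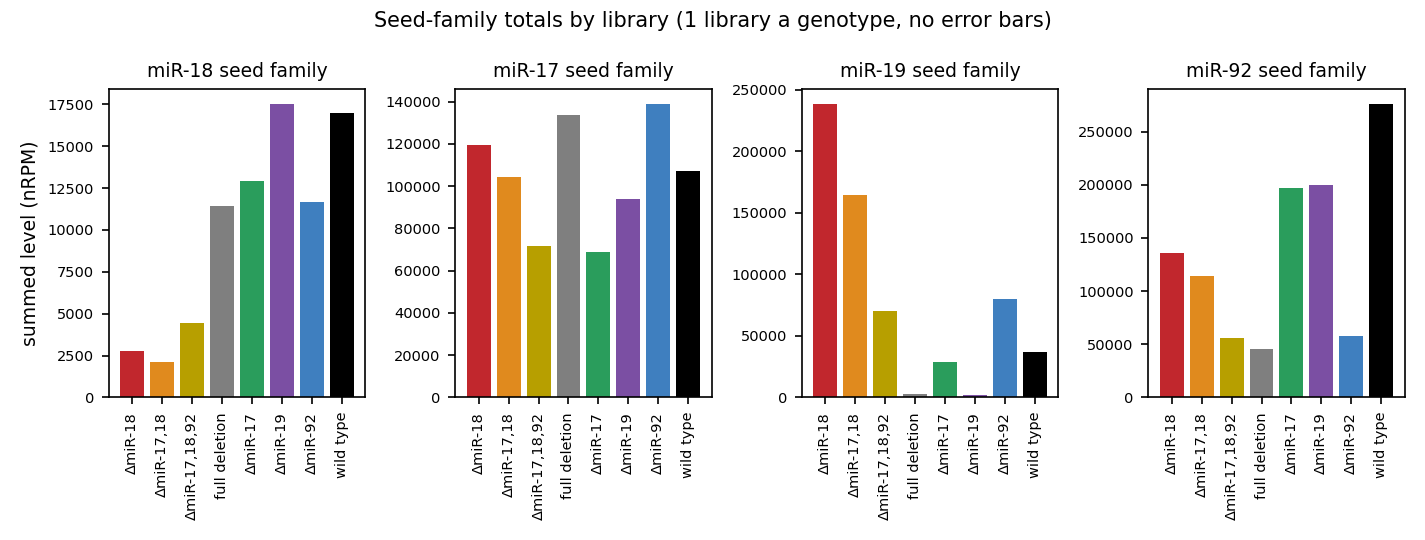
Summed level in nRPM of all mature miRNAs that share each of the 4 seeds of the cluster, 1 bar for each of the 8 libraries and without error bars because each genotype has 1 library. The miR-19 bar of ΔmiR-18 (238616 nRPM) is the highest of its family, and the miR-92 bar of wild type (276167 nRPM) the highest of its own.

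The paralog clusters, which arose by duplication and carry related guides, stood in sum at 0.815 of wild type (miR-106a to miR-363) and 1.02 of wild type (miR-106b to miR-25) in ΔmiR-18. The cluster of miR-106a to miR-363 summed to 17475 nRPM in ΔmiR-18, the lowest of all 8. Wild type summed to 21429 nRPM, and the other 6 libraries lay between 19826 and 42001 nRPM. This sum leaves out miR-19b-3p and miR-92a-3p. Its low value in ΔmiR-18 rested on miR-18b-5p, which held 2788 nRPM of it, against 6869 nRPM of the wild-type sum. That difference was larger than the difference between the sums. Without miR-18b-5p, wild type was the lowest of the 8 and ΔmiR-18 lay slightly above it. Within this cluster, miR-106a-5p stood at 4391 nRPM in ΔmiR-18, against 2612 nRPM in wild type, and wild type was lowest of the 8. miR-20b-5p stood at 4619 nRPM in ΔmiR-18, against 5979 nRPM in wild type, with ΔmiR-18 lowest of the 8. miR-363-3p, with the miR-92 seed, had 4380 nRPM in ΔmiR-18, against 4709 nRPM in wild type. Its partner miR-363-5p had 1006 nRPM in ΔmiR-18, against 965 nRPM in wild type. The rare arms miR-106a-3p, miR-19b-2-5p, miR-20b-3p and miR-92a-2-5p stood between 17.2 and 124.9 nRPM in ΔmiR-18 and between 7.67 and 181 nRPM in wild type. The miR-106b~25 cluster, in an intron of the replication gene Mcm7, summed to 97181 nRPM in ΔmiR-18, against 95176 nRPM in wild type, a ratio of 1.02. Its miR-106b-5p was higher in ΔmiR-18, at 28068 nRPM against 16824 nRPM in wild type, and its miR-93-5p lower, at 24978 nRPM against 33347 nRPM. miR-25-3p stood at 42140 nRPM in ΔmiR-18, against 42560 nRPM in wild type. All 3 lay within the range of the other 6 libraries in both. The partner arms miR-106b-3p, miR-93-3p and miR-25-5p had 1739, 249 and 5.49 nRPM in ΔmiR-18 and 2252, 185 and 6.42 nRPM in wild type.

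Outside the cluster, 319 miRNAs averaged 100 nRPM or more over the 8 libraries. Of these, 24 (7.52%) were 2-fold or more higher in ΔmiR-18 than in wild type and 23 (7.21%) were 2-fold or more lower. The median log2 ratio was -0.01, with 155 positive and 164 negative. ΔmiR-18 was the highest of the 8 libraries for 28 miRNAs (8.78%) and the lowest for 33 (10.3%). The other 7 libraries were each highest for 31 to 60 and lowest for 29 to 57, so ΔmiR-18 was the highest for the fewest miRNAs of the 8 and the lowest for a number inside the range of the others. After scaling to plain library totals, ΔmiR-18 was the highest for 11 and the lowest for 71. Its median distance from the median of the others was 0.29 on the log2 scale, against 0.30 to 0.39 for the other 7. Among the 24 higher miRNAs, ΔmiR-18 alone lay outside the range of the other 6 libraries for 10, wild type alone for 6, both for 3 and neither for 5. Among the 23 lower ones the counts were 6, 12, 3 and 2. The ones just inside the 2-fold limit were miR-451 (log2 1.03) and miR-429-3p (-1.01), and those just outside were miR-144-5p (0.98) and miR-770-3p (-0.98).

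A model over all 8 libraries with additive terms for the 4 deleted families tested the loss of miR-18a outside the cluster, in the 538 miRNAs averaging 10 nRPM or more. limma called 0 of them (0%) at an adjusted p of 0.05, with a lowest adjusted p of 0.569 and 19 miRNAs at an unadjusted p under 0.05. On the recovered reads, edgeR's quasi-likelihood test also called 0, with 17 under 0.05 unadjusted. DESeq2 called 0, with 24 under 0.05 unadjusted. Of the miR-18a arms, limma gave both an adjusted p of 0.00612, and edgeR one of 0.193. edgeR thus did not call the deleted miRNA itself, so its 0 calls cannot decide whether other miRNAs differed. In DESeq2, miR-19b-3p passed at an adjusted p of 0.0172, with a log2 term of 1.91, where limma gave 1.92 ± 0.41 (SE) and an adjusted p of 0.304. Without the ΔmiR-92 library, limma called both miR-19 guides, miR-19b-3p with a term of 2.49 (limma adjusted p = 0.000874) and miR-19a-3p with one of 2.79 (limma adjusted p = 0.00232). In none of the other fits that left out 1 library did limma call them.

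The 12 highest ratios outside the cluster ran from 2.47 to 1.30 on the log2 scale, and the 12 lowest from -3.58 to -1.32. Sequences of 2 of the highest ratios and 4 of the lowest, chosen after their values were seen, are shown with the seed in capitals, from the same RefSeq table.
miR-367-3p: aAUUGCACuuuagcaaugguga
miR-135a-5p: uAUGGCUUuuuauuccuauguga
miR-494-3p: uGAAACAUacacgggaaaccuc
miR-191-5p: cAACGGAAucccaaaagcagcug
miR-154-3p: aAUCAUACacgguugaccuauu
miR-423-3p: aGCUCGGUcugaggccccucagu
miR-367-3p, of the pluripotency cluster of miR-302 and miR-367, carries the seed of miR-92a-3p. It stood at 1582 nRPM in ΔmiR-18, at 162, 609 and 2211 nRPM as the lowest, median and highest of the other 6 libraries, and at 285 nRPM in wild type. Both libraries lay within that range, and the log2 ratio of 2.47 was thus no larger than the spread between genotypes. ΔmiR-92, with intact miR-18a, had 1891 nRPM, more than ΔmiR-18. With all 8 libraries, limma gave miR-367-3p a miR-18 term of 1.29 ± 0.81 (SE) and an adjusted p of 0.988. In a 7-library fit without ΔmiR-92, miR-367-3p was the 1 miRNA outside the cluster that limma called. Its miR-18 term there was 2.51, with a limma adjusted p of 0.0151.

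miR-135a-5p and miR-135b-5p, a pair from different chromosomes that is abundant in nervous tissue, were both above all 7 other libraries in ΔmiR-18. miR-135a-5p stood at 1954 nRPM in ΔmiR-18, at 281, 657 and 876 nRPM as the lowest, median and highest of the other 6, and at 452 nRPM in wild type. miR-135b-5p stood at 3514 nRPM in ΔmiR-18, at 827, 1325 and 1950 nRPM in the others, and at 862 nRPM in wild type. Their partner arms did not share this pattern. miR-135b-3p had 39.99 nRPM in ΔmiR-18, against 47.9 nRPM in wild type. miR-135a-2-3p had 120 nRPM in ΔmiR-18, against 72.0 nRPM in wild type, and miR-135a-1-3p had 51.1 nRPM in ΔmiR-18, against 65.0 nRPM in wild type. In the second pair the log2 ratios were -0.33 for miR-135a-5p and 0.51 for miR-135b-5p.

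The blood miRNAs miR-144-3p, which accompanies red cell maturation, and miR-142-3p, a miRNA of white blood cells, were also above all others in ΔmiR-18. miR-144-3p stood at 291 nRPM in ΔmiR-18, 83.7 to 168 nRPM in the other 6 libraries and 85.5 nRPM in wild type. miR-142-3p stood at 849 nRPM in ΔmiR-18, 114 to 313 nRPM in the other 6 and 328 nRPM in wild type. Here the other arm was higher too, with miR-142-5p at 648 nRPM in ΔmiR-18, against 292 nRPM in wild type, and miR-144-5p at 195 nRPM in ΔmiR-18, against 98.4 nRPM in wild type. In embryo tissue, more blood cells and more of these miRNAs per cell cannot be told apart. The second pair gave log2 ratios of -0.31 for miR-142-3p and 0.01 for miR-144-3p.

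The other miRNAs among the 12 highest ratios fell into 2 kinds. miR-322-5p, miR-181a-1-3p and miR-379-3p were above all others in ΔmiR-18, at 2991, 516 and 986 nRPM, with highest values of 2541, 429 and 641 nRPM in the other 6 libraries and 967, 190 and 399 nRPM in wild type. For miR-7a-5p, miR-675-5p, miR-122-5p and miR-302c-3p, wild type lay below all others instead. miR-7a-5p stood at 2309 nRPM in ΔmiR-18, 1523 to 5013 nRPM in the other 6 and 868 nRPM in wild type. miR-675-5p, made from the imprinted H19 transcript, had 124.7 nRPM in ΔmiR-18, against 37.6 nRPM in wild type. The liver miRNA miR-122-5p had 196 nRPM in ΔmiR-18, against 69.4 nRPM in wild type. For miR-122-5p, ΔmiR-17 and the full deletion were close to wild type, at 71.0 and 76.7 nRPM. miR-302c-3p had 185 nRPM in ΔmiR-18, 203 to 388 nRPM in the other 6 and 55.8 nRPM in wild type, so that both lay below the rest.

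The 2 lowest ratios were larger in size than any of the highest. miR-494-3p stood at 87.0 nRPM in ΔmiR-18, at 173, 448 and 1295 nRPM as the lowest, median and highest of the other 6 libraries, and at 1053 nRPM in wild type, a log2 ratio of -3.58. ΔmiR-18 was lowest of the 8. miR-191-5p stood at 401 nRPM in ΔmiR-18, at 3102, 4535 and 5754 nRPM in the others, and at 3971 nRPM in wild type, a log2 ratio of -3.30. The 7 other libraries lay within a narrow band and ΔmiR-18 far below it. Its partner arm miR-191-3p had 19.5 nRPM in ΔmiR-18, against 23.96 nRPM in wild type, with 16.6 to 28.5 nRPM in the others, so that arm lay within the spread. miR-425-5p, from the same host transcript, had 205 nRPM in ΔmiR-18, against 321 nRPM in wild type.

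miR-154-3p and miR-423-3p were also lowest in ΔmiR-18, far from the rest. miR-154-3p, of the imprinted Dlk1-Dio3 region, stood at 163 nRPM in ΔmiR-18, 567 to 1454 nRPM in the other 6 libraries and 808 nRPM in wild type. Its partner miR-154-5p had 45.5 nRPM in ΔmiR-18, against 64.7 nRPM in wild type. miR-423-3p stood at 815 nRPM in ΔmiR-18, 2379 to 3663 nRPM in the other 6 and 3711 nRPM in wild type, the highest of the 8. Its partner miR-423-5p was lower as well, at 154 nRPM in ΔmiR-18, against 590 nRPM in wild type, but within the range of the others in both. The partner arm of miR-494-3p, miR-494-5p, had 20.5 nRPM in ΔmiR-18, against 26.0 nRPM in wild type.

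Among the remaining 7 of the 12 lowest ratios, wild type was above the range of the other 6 libraries for 6. miR-450a-5p stood at 440 nRPM in ΔmiR-18, 141 to 877 nRPM in the other 6 and 1724 nRPM in wild type. miR-455-5p had 167 nRPM in ΔmiR-18, against 654 nRPM in wild type, and miR-361-3p had 78.2 nRPM in ΔmiR-18, against 327 nRPM in wild type. miR-224-5p stood at 105 nRPM in ΔmiR-18, against 314 nRPM in wild type, miR-292-5p at 442 nRPM in ΔmiR-18, against 1161 nRPM in wild type, and miR-295-3p at 66.6 nRPM in ΔmiR-18, against 333 nRPM in wild type. miR-294-3p, at 66.9 nRPM in ΔmiR-18, against 168 nRPM in wild type, was lowest of the 8 in ΔmiR-18, as were miR-224-5p and miR-295-3p.

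**Figure D3:**
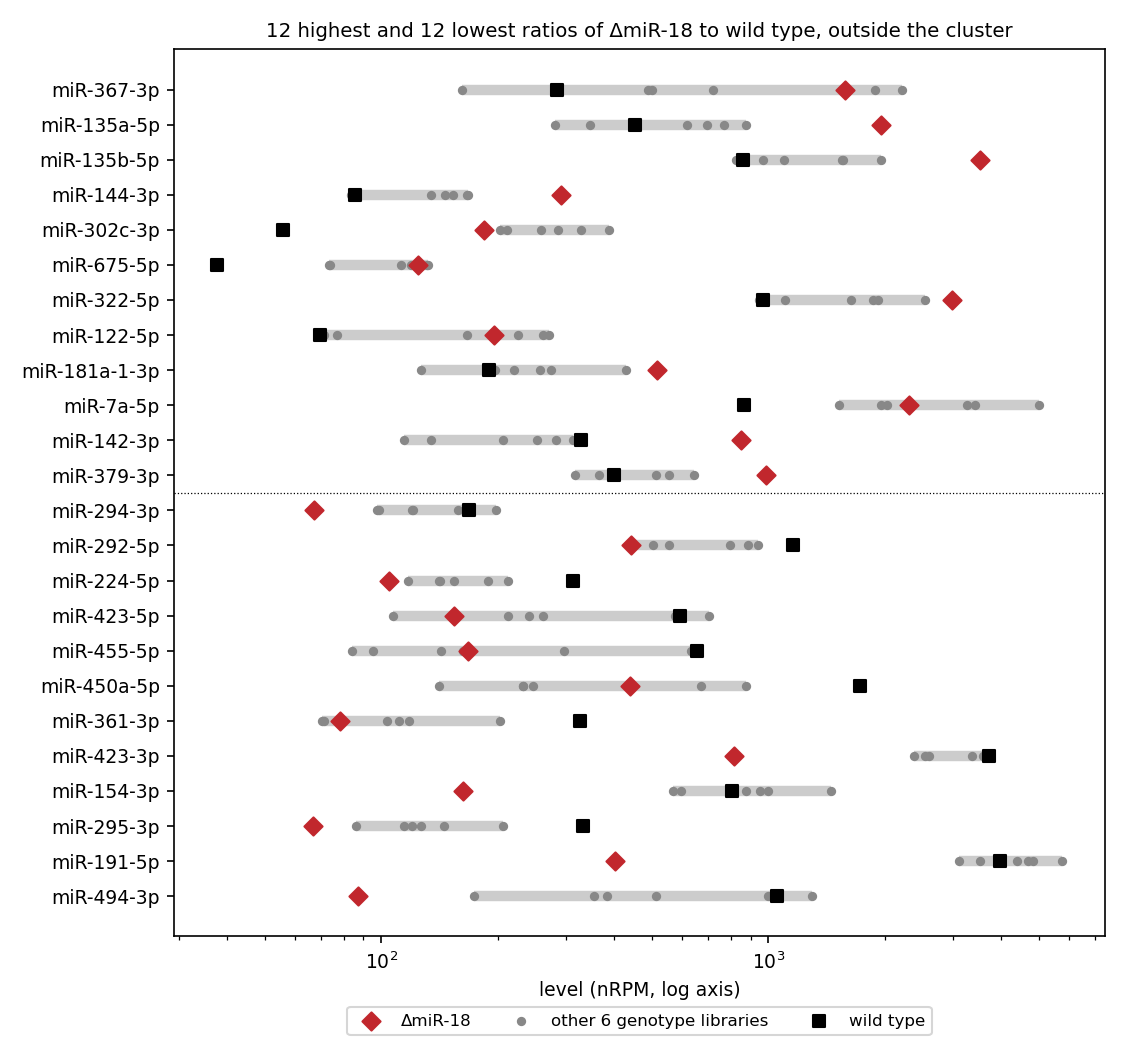
Level in nRPM (log axis) of the miRNAs outside the cluster with the 12 highest and the 12 lowest ratios of ΔmiR-18 to wild type, with 1 point per library. Grey bars span the other 6 genotype libraries. For miR-191-5p the ΔmiR-18 library (401 nRPM) lies alone far below 7 libraries, whereas for miR-450a-5p the wild-type library (1724 nRPM) lies alone above the rest.

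miR-494-3p and miR-154-3p, the first and the fourth lowest ratios, share a stretch of 9 bases. Of the 319 counted miRNAs, the 267 with a RefSeq sequence could be searched, and 1 other holds it, miR-485-3p. The shared stretch is in capitals.
miR-494-3p: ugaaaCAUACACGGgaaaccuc
miR-154-3p: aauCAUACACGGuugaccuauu
miR-485-3p: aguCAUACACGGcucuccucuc
miR-485-3p had a log2 ratio of -0.46, with 214 nRPM in ΔmiR-18, against 295 nRPM in wild type. The 6-base core ACACGG is held by 2 further counted miRNAs with a sequence, miR-323-3p (log2 -0.35) and miR-411-3p (-0.59). All 5 were lower in ΔmiR-18 than in wild type, but miR-485-3p, miR-323-3p and miR-411-3p lay within the range of the other 6 libraries. The stretch was searched for after the ratios had been seen, and a match is a description of these letters.

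The miRNAs were also grouped by 23 lists of developmental families and tissue markers, for which the shares of all counted miRNAs 2-fold higher and lower (7.52% and 7.21%) are the background. In the list of miR-290 to miR-295, the early embryonic cluster of pluripotent cells, 4 of 8 counted members were 2-fold lower, 0 were higher and the median log2 ratio was -1.01. Besides miR-292-5p, miR-294-3p and miR-295-3p, the fourth was miR-293-5p, at 249 nRPM in ΔmiR-18, against 608 nRPM in wild type. miR-293-3p went the other way, at 493 nRPM in ΔmiR-18, against 363.4 nRPM in wild type. The summed list held 1641 nRPM in ΔmiR-18, 1895 to 3214 nRPM in the other 6 libraries and 3161 nRPM in wild type, so ΔmiR-18 was lowest of the 8. In the second pair its median log2 ratio was -0.09.

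In the blood list 4 of 7 counted members were 2-fold higher, miR-144-3p, miR-142-3p, miR-142-5p and miR-451, and the median log2 ratio was 1.03. miR-451, the red cell miRNA that skips Dicer, stood at 534 nRPM in ΔmiR-18, against 261 nRPM in wild type. The most abundant members, miR-486-3p and miR-486-5p, were not among them, with 988 and 943 nRPM in ΔmiR-18, against 1246 and 1187 nRPM in wild type. The sum was 4496 nRPM in ΔmiR-18, 2160 to 4200 nRPM in the other 6 and 3544 nRPM in wild type. The second pair had a median of -0.60. The myeloid marker miR-223-3p and the lymphoid marker miR-150-5p were near 0, with miR-223-3p at 4.31 nRPM in ΔmiR-18, against 3.13 nRPM in wild type, and miR-150-5p at 2.37 nRPM in ΔmiR-18, against 1.41 nRPM in wild type.

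In the neural list 2 of 9 counted members were 2-fold higher, the miR-135 pair, and the median log2 ratio was 0.68. miR-9-5p, a regulator of neural progenitors, stood at 2897 nRPM in ΔmiR-18, against 1806 nRPM in wild type, but ranged from 620 to 3686 nRPM in the others. miR-219-2-3p stood at 5087 nRPM in ΔmiR-18, against 4077 nRPM in wild type. The neuronal miR-124-3p stood at 1265 nRPM in ΔmiR-18, against 1168 nRPM in wild type. The sum was 17304 nRPM in ΔmiR-18, 11399 to 14000 nRPM in the other 6 and 10975 nRPM in wild type, so the 2 libraries held the highest and the lowest sum of the 8. The second pair had a median of -0.33.

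Several other families leaned upward, where 155 of all 319 counted miRNAs had a positive log2 ratio. Members of 1 family are not independent replicates. All 6 counted let-7 members had positive log2 ratios, with a median of 0.40 and 0 past 2-fold. let-7f-5p stood at 1298 nRPM in ΔmiR-18, against 847 nRPM in wild type, and let-7a-5p at 1047 nRPM in ΔmiR-18, against 843 nRPM in wild type. All 7 counted members of the miR-181 family were positive, with a median of 0.57 and 1 past 2-fold. miR-181a-5p and the higher row of miR-181b-5p stood at 6494 and 4626 nRPM in ΔmiR-18, against 4658 and 3125 nRPM in wild type. The miR-99, miR-100 and miR-125 families had 2 of 7 counted members 2-fold higher. miR-125b-5p stood at 4025 nRPM in ΔmiR-18, 897 to 2725 nRPM in the other 6 and 1793 nRPM in wild type, while miR-99b-5p stood at 8111 nRPM in ΔmiR-18, against 6812 nRPM in wild type. In the miR-23/27/24 families 5 of 5 counted members were positive with 1 past 2-fold. This was miR-27b-3p, at 3540 nRPM in ΔmiR-18, 1432 to 2875 nRPM in the other 6 and 1594 nRPM in wild type. miR-24-3p stood at 795 nRPM in ΔmiR-18, against 637 nRPM in wild type. In the second pair the medians were -0.33 for let-7, 0.00 for miR-181, -0.56 for miR-99, miR-100 and miR-125 and -0.01 for miR-23/27/24, against 0.40, 0.57, 0.61 and 0.30 in ΔmiR-18 over wild type.

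The X-linked fetal cluster of miR-322, miR-503, miR-450 and miR-542 was split. miR-322-5p and miR-542-3p were 2-fold higher, miR-450a-5p was 2-fold lower, and the median of 8 was 0.10. miR-503-5p stood at 3567 nRPM in ΔmiR-18, against 2603 nRPM in wild type. Likewise the list of miR-302 and miR-367 had 2 of 7 past 2-fold higher and a median of 0.10, while its most abundant members miR-302b-3p and miR-302d-3p stood at 2147 and 948 nRPM in ΔmiR-18, against 2406 and 1815 nRPM in wild type. miR-302d-3p was lowest of the 8 in ΔmiR-18, where miR-367-3p of the same transcript lay within the range of the other 6.

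In the families of body position and of several mature tissues, few of the counted members, to which the counts below refer, were past 2-fold. The Hox-embedded miR-10 and miR-196 family had 0 of 7 members past 2-fold and a median of 0.03, with miR-10b-5p at 36136 nRPM in ΔmiR-18, against 35292 nRPM in wild type, and miR-10a-5p at 23664 nRPM in ΔmiR-18, against 28278 nRPM in wild type. The mesenchymal list had 1 of 9 past 2-fold, miR-140-5p, and a median of 0.49, while its most abundant members miR-143-3p and miR-140-3p stood at 12979 and 6302 nRPM in ΔmiR-18, against 14371 and 6782 nRPM in wild type. The miR-30 family had 0 of 10 past 2-fold and a median of 0.07, with miR-30e-5p and miR-30a-5p at 20904 and 12453 nRPM in ΔmiR-18, against 19451 and 11618 nRPM in wild type. Muscle had 0 of 3, endothelium 0 of 2 and the sensory miR-183/96/182 cluster 0 of 4 past 2-fold. The imprinted miRNAs miR-127-3p and miR-541-5p, among the 10 most abundant in wild type, stood at 22687 and 20558 nRPM in ΔmiR-18, against 22522 and 20190 nRPM in wild type.

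Across the 319 miRNAs outside the cluster, the log2 ratio of ΔmiR-18 to wild type was little related to that of ΔmiR-17,18 to ΔmiR-17, with a Pearson r of 0.22 and a Spearman rho of 0.18 across miRNAs, which are not independent replicates. In the second pair 74 of the 319 miRNAs (23.2%) passed 2-fold, 33 of the 319 higher and 41 of the 319 lower. In each direction the share of the first list given below was larger than that of all 319. Of the 24 miRNAs higher in ΔmiR-18, 5 were 2-fold higher in the second pair too, which is 20.8% of the first list and 15.2% of the second. These were miR-7a-5p, miR-322-5p, miR-367-3p, miR-140-5p and miR-122-5p. Of the 23 lower ones, 10 were 2-fold lower in the second pair too, or 43.5% of the first list and 24.4% of the second. These were miR-18b-5p, miR-543-3p, miR-101a-3p, miR-429-3p, miR-494-3p, miR-450a-5p, miR-293-5p, miR-455-5p, miR-410-5p and miR-361-3p. miR-18b-5p and miR-450a-5p were the furthest down in the second pair among these, at -2.23 and -1.91. miR-450a-5p had been above all others in wild type, and stood at 233 nRPM in ΔmiR-17,18 and 877 nRPM in ΔmiR-17.

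**Figure D4:**
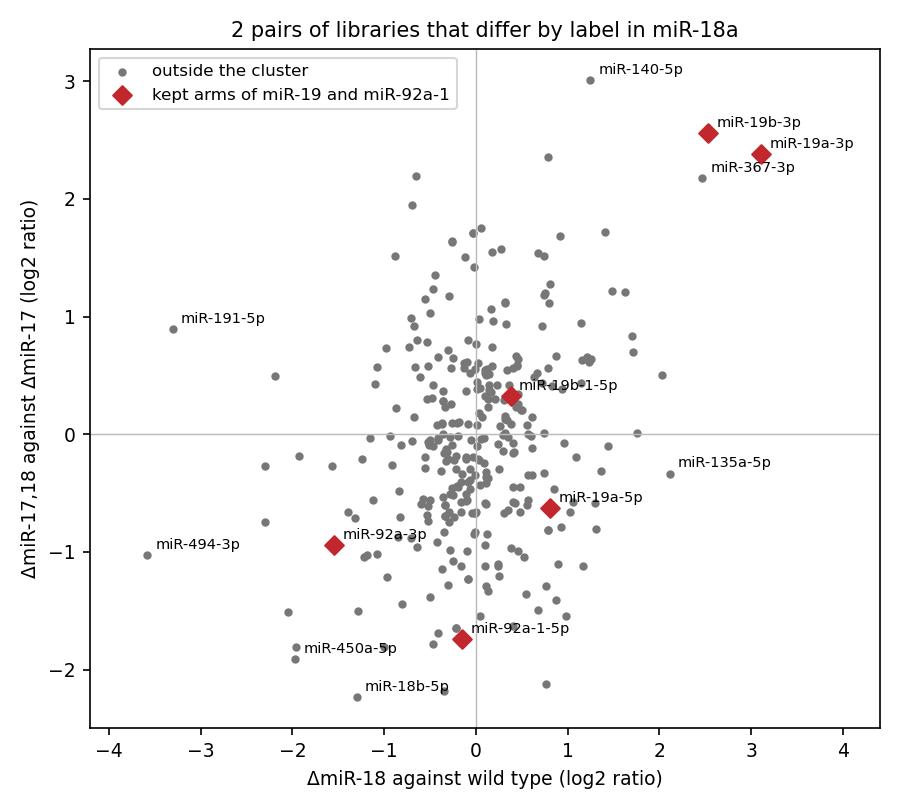
Log2 ratio of ΔmiR-18 to wild type (horizontal axis) and of ΔmiR-17,18 to ΔmiR-17 (vertical axis) for 319 miRNAs outside the cluster (grey) and the kept arms of miR-19 and miR-92a-1 (diamonds). The miR-19 guides lie far to the upper right, while miR-191-5p is low in the first pair alone (-3.30 against 0.89).

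The base composition of the mature sequence went with the ratio. A RefSeq sequence was found for 267 of the 319 miRNAs (83.7%). The 51 with up to 40% G and C had a median log2 ratio of 0.41, with 12 of them 2-fold higher and 5 lower. The 134 with over 40% to 50% had a median of 0.03, with 7 higher and 11 lower. The 82 with over 50% had a median of -0.28, with 1 higher and 5 lower. The Spearman rho across these miRNAs was -0.31, and with ΔmiR-18 set against the median of the other 7 libraries it was -0.35. For the other libraries set against their own 7 others, rho ran from -0.19 in ΔmiR-17 to 0.15 in wild type, and for the second pair it was 0.13. The share of U in the mature sequence had a rho of 0.09 for ΔmiR-18 over wild type and of -0.30 for the second pair. With ΔmiR-18 set against the median of the other 7 it was 0.27. The length of the mature sequence had a rho of -0.05 for ΔmiR-18 over wild type. Among the kept guide arms, miR-19a-3p lay at 34.8% and miR-19b-3p at 39.1% G and C, miR-20a-5p at 39.1%, miR-17-5p at 47.8% and miR-92a-3p at 57.1%. The part of base composition in the levels of these guides was not tested.

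**Figure D5:**
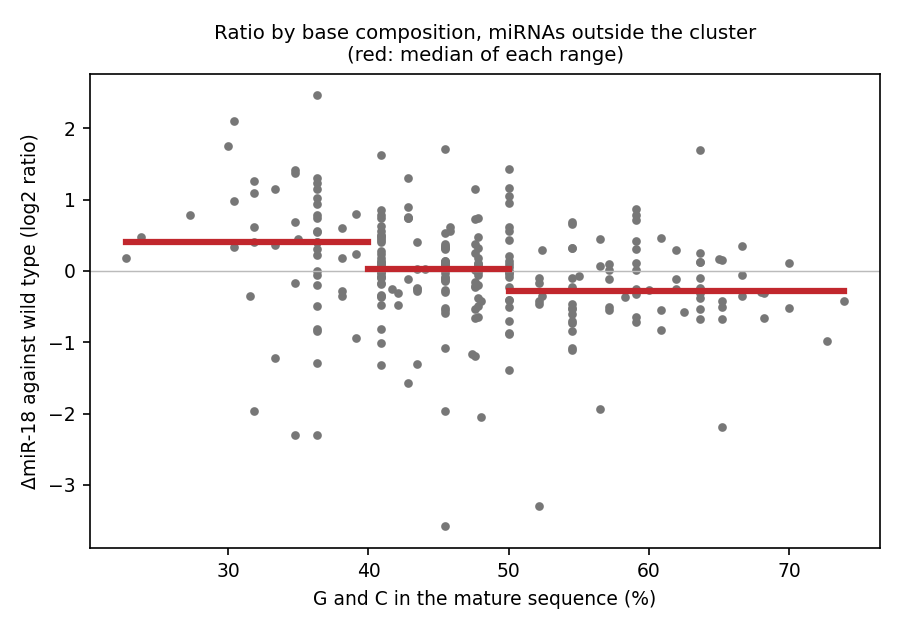
Log2 ratio of ΔmiR-18 to wild type against the G and C content of the mature sequence (percent), 1 point for each of 267 miRNAs outside the cluster, with red lines at the median of each range. The medians step down through 0.41, 0.03 and -0.28.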

How the data were processed

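Small RNA of 8 genotype libraries was compared, 1 per genotype. RNA came from a Trizol extraction, per the labels' protocols. Per the submitters' processing notes, the tools were featureCounts from Subread 1.4.2, SAMtools 0.1.19 and STAR 2.2.0, with mm9 as the build. The handling of reads that map to several places is not given in these sources. The authors deposited a normalised signal for each miRNA and library, 1046 rows for 977 accessions. These values were whole multiples of what 1 read was worth (100% within 0.001 reads), which gave back the count of reads. Rows of 1 accession within 10% were merged, leaving 986. The 8 accessions with unequal rows stayed apart. Some miRNAs of different accessions hold identical values. Values were multiplied by 0.1159 to give nRPM.

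A pseudocount of 1 nRPM was added before taking log2. ΔmiR-18 and wild type were compared by size, in miRNAs averaging 100 nRPM or more. The miR-18 term was tested with limma 3.58.1 (trend; all 8 libraries) on those averaging 10 nRPM or more, and tested on simulated data. edgeR 4.0.16 on the recovered reads and DESeq2 1.42.0 were alternatives, and each called 0 miRNAs outside the cluster. The edgeR test did not call the deleted miR-18a arms either, so its 0 calls cannot decide the question. The study's genotypes came from the labels. A library of undetermined reads was left out. Named were every arm of the 3 clusters, 12 miRNAs with the highest and 12 with the lowest ratios and at least 20 reads in either library, the 10 most abundant in wild type and the 2 most abundant of each of 23 lists. The members and lists were chosen with earlier results of these data known, and further miRNAs named beside them were chosen after their values were seen. Scaling, filters, pseudocounts, merging, the fold limit and left-out libraries were varied.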

Additional observations from a re-analysis of the deposited data

Results flagged for a closer look

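Of the 319 miRNAs outside the cluster averaging 100 nRPM or more, 32 had opposite directions in ΔmiR-18 over wild type and in ΔmiR-17,18 over ΔmiR-17, with a log2 size of 0.5 or more in both. The difference between the pairs was not tested, since each has 1 library a side. Of the miRNAs named here, 9 were among the 32, and the kept partner arm miR-19a-5p met the same limits. miR-191-5p had a log2 ratio of -3.30 in the first pair and of 0.89 in the second. miR-379-3p, of the imprinted Dlk1-Dio3 region, had 1.30 and -0.81, and miR-382-5p, of the same region, had -0.89 and 1.52. The blood miRNAs miR-451 and miR-144-5p had 1.03 and 0.98 in the first pair and -0.66 and -1.54 in the second. miR-125b-5p had 1.17 and -1.12, and the neural miR-9-5p had 0.68 and -1.49. miR-296-3p had -0.66 and 2.19, and miR-770-3p had -0.98 and 0.73. miR-19a-5p had 0.81 in the first pair and -0.62 in the second, while its guide arm was higher in both.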

How the results depend on the processing

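No paired analysis was possible because each genotype has 1 library and the groups share fewer than 2 replicate numbers. With 1 library a side, spread between embryos cannot be told apart from genotype, and depth limits only the rarest arms. The guide-arm median (log2 1.07) was 1.01 after scaling to plain totals, 1.11 to totals outside the cluster, 1.10 by TMM and 1.10 by median ratios. The partner-arm median (0.34) was 0.28 by plain totals, 0.38 by totals outside the cluster, 0.37 by TMM and 0.37 by median ratios. The 24 higher and 23 lower miRNAs became 48 and 42 with a minimum average of 10 nRPM, 6 and 6 with one of 1000 nRPM, and 7 and 9 at 3-fold. ΔmiR-18 was highest for 11 miRNAs and lowest for 71 after scaling to plain totals, against 28 and 33, for 13 and 13 at 1000 nRPM or more, and lowest for 50 at 10 nRPM or more. The cause was not tested beyond the number of miRNAs each filter leaves. These scalings moved the median log2 ratio of ΔmiR-18 to wild type outside the cluster by -0.06 to 0.04. That shift does not cover the other 6 libraries, on which the counts of highest and lowest also rest. With each other library left out in turn, ΔmiR-18 was highest for 29 to 37 and lowest for 34 to 41. limma called 0 to 1 miRNAs outside the cluster for the miR-18 term with each library left out. These were miR-191-5p without ΔmiR-17 (log2 -3.49, limma adjusted p = 0.0305) and miR-367-3p without ΔmiR-92 (2.51, limma adjusted p = 0.0151). The left-out ΔmiR-92 library, with intact miR-18a, had more miR-367-3p than ΔmiR-18, at 1891 against 1582 nRPM. Without ΔmiR-18, without ΔmiR-19 or without wild type, limma did not call the deleted miR-18a arms either, so those fits cannot decide the question. Of 238 values of single arms and miRNAs under other settings, 192 moved by less than their counting interval and 46 by more, and 0 turned their direction.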

Other observations

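miR-130a-3p and miR-301a-3p, which share a seed and repress TGF-beta pathway genes, stood at 13595 and 4682 nRPM in ΔmiR-18, against 8740 and 2702 nRPM in wild type, and 4 of 5 counted members of the miR-130 and miR-301 families had positive log2 ratios, with 0 past 2-fold. The summed families held 24273 nRPM in ΔmiR-18, 20138 to 30633 nRPM in the other 6 libraries and 16647 nRPM in wild type, the lowest of the 8. Of the families of miR-15, miR-16, miR-103 and miR-107, 7 of 8 counted members were positive with 1 past 2-fold. Among all 319 counted miRNAs 155 were positive. miR-103-3p and miR-16-5p stood at 10658 and 4086 nRPM in ΔmiR-18, against 9410 and 3703 nRPM in wild type. miR-34c-5p, of the p53-regulated miR-34 family, stood at 2115 nRPM in ΔmiR-18, above 1377 to 1832 nRPM in the other 6, and at 1189 nRPM in wild type, below them, while miR-34a-5p stood at 130 nRPM in ΔmiR-18, against 185 nRPM in wild type.

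The epithelial list, of the miR-200 families and miR-205, had 1 of 6 counted members 2-fold lower, beside 7.21% of all 319. Its median log2 ratio was -0.37. In the epithelial list, miR-141-3p and miR-200c-3p stood at 2785 and 1847 nRPM in ΔmiR-18, against 2551 and 2190 nRPM in wild type. In the sensory cluster miR-182-5p and miR-183-5p stood at 6769 and 5237 nRPM in ΔmiR-18, against 9092 and 6597 nRPM in wild type. The endothelial miR-126-3p and miR-126-5p stood at 7349 and 2514 nRPM in ΔmiR-18, against 8047 and 2673 nRPM in wild type. The muscle miRNA miR-133a-3p stood at 403 nRPM in ΔmiR-18, against 427 nRPM in wild type. The hypoxia miRNA miR-210-3p stood at 2103 nRPM in ΔmiR-18, against 1934 nRPM in wild type, and its partner miR-210-5p at 9.55 nRPM in ΔmiR-18, against 19.9 nRPM in wild type. In the imprinted H19, Igf2 and Gnas list 1 of 6 was 2-fold higher, miR-675-5p, beside 7.52% of all 319. There miR-296-3p and miR-483-3p stood at 3740 and 420 nRPM in ΔmiR-18, against 5902 and 454 nRPM in wild type. The liver list consists of the 2 arms of miR-122, of which miR-122-3p had 0.499 nRPM in ΔmiR-18 and 0 reads in wild type. Of the arms from the host transcript of miR-191 and miR-425, 1 of 2 counted members was 2-fold lower, miR-191-5p, beside 7.21% of all 319. The median log2 ratio of the 2 was -1.97. The arms summed to 736 nRPM in ΔmiR-18, 3711 to 6072 nRPM in the other 6 libraries and 4435 nRPM in wild type. miR-191-3p, miR-425-5p and miR-425-3p had ratios to wild type of 0.812, 0.639 and 0.928. In ΔmiR-18 they lay within the range of the other 6 libraries, so the low sum was that of miR-191-5p.

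Of the 14 hairpins outside the cluster whose ratio of arms differed by 2-fold or more, ΔmiR-18 lay within the range of the other 6 libraries in 12 and outside it in 2, miR-674 and miR-335. miR-674-5p stood at 353 nRPM in ΔmiR-18, against 220.1 nRPM in wild type, while miR-674-3p stood at 487 nRPM in ΔmiR-18, against 890.4 nRPM in wild type. miR-335-5p stood at 4425 nRPM in ΔmiR-18, against 3506 nRPM in wild type, while miR-335-3p stood at 9703 nRPM in ΔmiR-18, against 16980 nRPM in wild type. The 3 hairpins with the largest differences lay within the range. miR-361-5p stood at 1346 nRPM in ΔmiR-18, against 1061 nRPM in wild type, while miR-361-3p stood at 78.2 nRPM in ΔmiR-18, against 327 nRPM in wild type. miR-382-5p stood at 1675 nRPM in ΔmiR-18, against 3098 nRPM in wild type, while miR-382-3p stood at 1823 nRPM in ΔmiR-18, against 952 nRPM in wild type. miR-410-5p stood at 113 nRPM in ΔmiR-18, against 259 nRPM in wild type, while miR-410-3p stood at 1645 nRPM in ΔmiR-18, against 1088 nRPM in wild type.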
